A study of Mus musculus with 5 samples.

Results

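Heat shock proteins and their DNAJ partners were followed in lung ILC2s, the group 2 innate lymphoid cells, which answer the alarmin IL-33 with type-2 cytokines. A gene was taken where a probe set carried a single platform symbol beginning with Hsp and one of the letters a, b, d, e or h or a digit, or with Dnaja, Dnajb or Dnajc and a number. Hspa5, Dnajb9, Dnajb11 and Dnajc3, which belong to the unfolded protein response, were left out, as were pseudogene names. This gave 64 genes of 22180, read by 72 probe sets, and each gene is represented by its probe set with the highest mean. The cells came from naive adult male mice, and 2 arrays held ILC2s of IL-33 knockout animals (IL-33KO) and 3 arrays held ILC2s of wild-type animals (WT). The labels call each array a biological replicate and give no strain, no age beyond adult and no number of animals per array. The knocked-out part of Il33 is not given in the sources used here. The comparison asks how transcripts in lung ILC2s differ when the mouse lacks IL-33.

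Molecular chaperones hold or refold unfolded protein. HSP70 proteins bind exposed hydrophobic stretches in a cycle driven by ATP, DNAJ proteins deliver substrates and start ATP hydrolysis through their J domain, and exchange factors such as the HSP110 proteins and Hspbp1 reset the cycle. HSP90 proteins finish the folding of kinases and steroid receptors, Hspd1 with its lid Hspe1 forms the folding chamber of mitochondria, and small heat shock proteins keep unfolded protein from clumping. Heat shock factor 1 switches the inducible genes on through heat shock elements in their promoters. In lymphocytes taken out of a tissue, these inducible genes and the immediate early genes are known to respond also to the isolation itself.

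All values are log2 signals as the submitters normalised them with RMA, and differences are IL-33KO minus WT on that scale. Medians of the 5 arrays lay between 4.29 and 4.33. Pearson's r over all probe sets, which are not independent, was 0.893 between the IL-33KO arrays, 0.894 to 0.918 between genotypes and 0.929 to 0.933 between WT arrays. Of the ILC2 markers, Gata3 read 8.21 and 7.89 in IL-33KO against 8.16 to 8.50 in WT, and Il7r 11.45 and 11.44 against 11.26 to 11.38. Il5 was dimmer, at 4.43 and 5.59 in IL-33KO against 5.59 to 6.37 in WT. The 14 ILC2 markers measured averaged 8.53 and 8.62 in IL-33KO, both below the 8.63 to 8.79 of WT. In difference, 11 of the 14 were below 0 and 3 above (21.4%, against 58.5% of all genes tested). The second IL-33KO array, labelled male, had a signal of 7.91 for Xist, the RNA of the inactive X chromosome, against 3.10 in the first IL-33KO array and 2.35 to 3.10 in WT. Of 3 Y-linked genes measured, Kdm5d and Eif2s3y read 4.79 and 6.14 on it, below all other arrays, and Uty read 7.17, above all others (6.95 in the first IL-33KO array and 5.83 to 6.96 in WT). Since its Xist signal goes against its label and the Y-linked genes do not settle it, each IL-33KO array is given apart below, and the value of replicate 1 alone is the value without replicate 2. Arrays of mixed cells cannot tell fewer cells of a type from less RNA per cell.

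Of the 64 chaperone genes, 60 passed the filter that removed the 25% of genes with the lowest mean, and Dnajb7, Dnajc5b, Hspa1l and Hspb8 did not. With limma, 0 of the 60 passed an adjusted p of 0.05, as did 0.0% of the 16635 genes tested. At an unadjusted p below 0.05 there were 8 chaperone genes, or 13.3%, where the share over all genes was 7.64%. Of these, 6 were higher (10%, against 5.05% of all genes) and 2 lower (3.33%, against 2.59%). They were Hspb1, Hsp90aa1, Dnajb6, Hspa2, Dnajb3, Dnaja4, Dnajb13 and Dnajc8. The adjusted p of the 60 genes ran from 0.518 to 1. The 95% interval of a difference, not adjusted for the number of genes, had a median half-width of 0.52 log2 units. Changes smaller than that could thus mostly not be told from 0 with 5 arrays, even before adjustment. Larger differences did not pass the adjusted threshold either. This held for the 10 chaperone genes that differed by at least 0.5, and for all genes tested, with differences from -5.15 to 4.43. With 2 arrays against 3, the smallest p of a two-sided exact permutation test is 0.1, so none is given for single genes. The plot of each array against the WT mean shows the 60 genes.

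**Figure D1:**
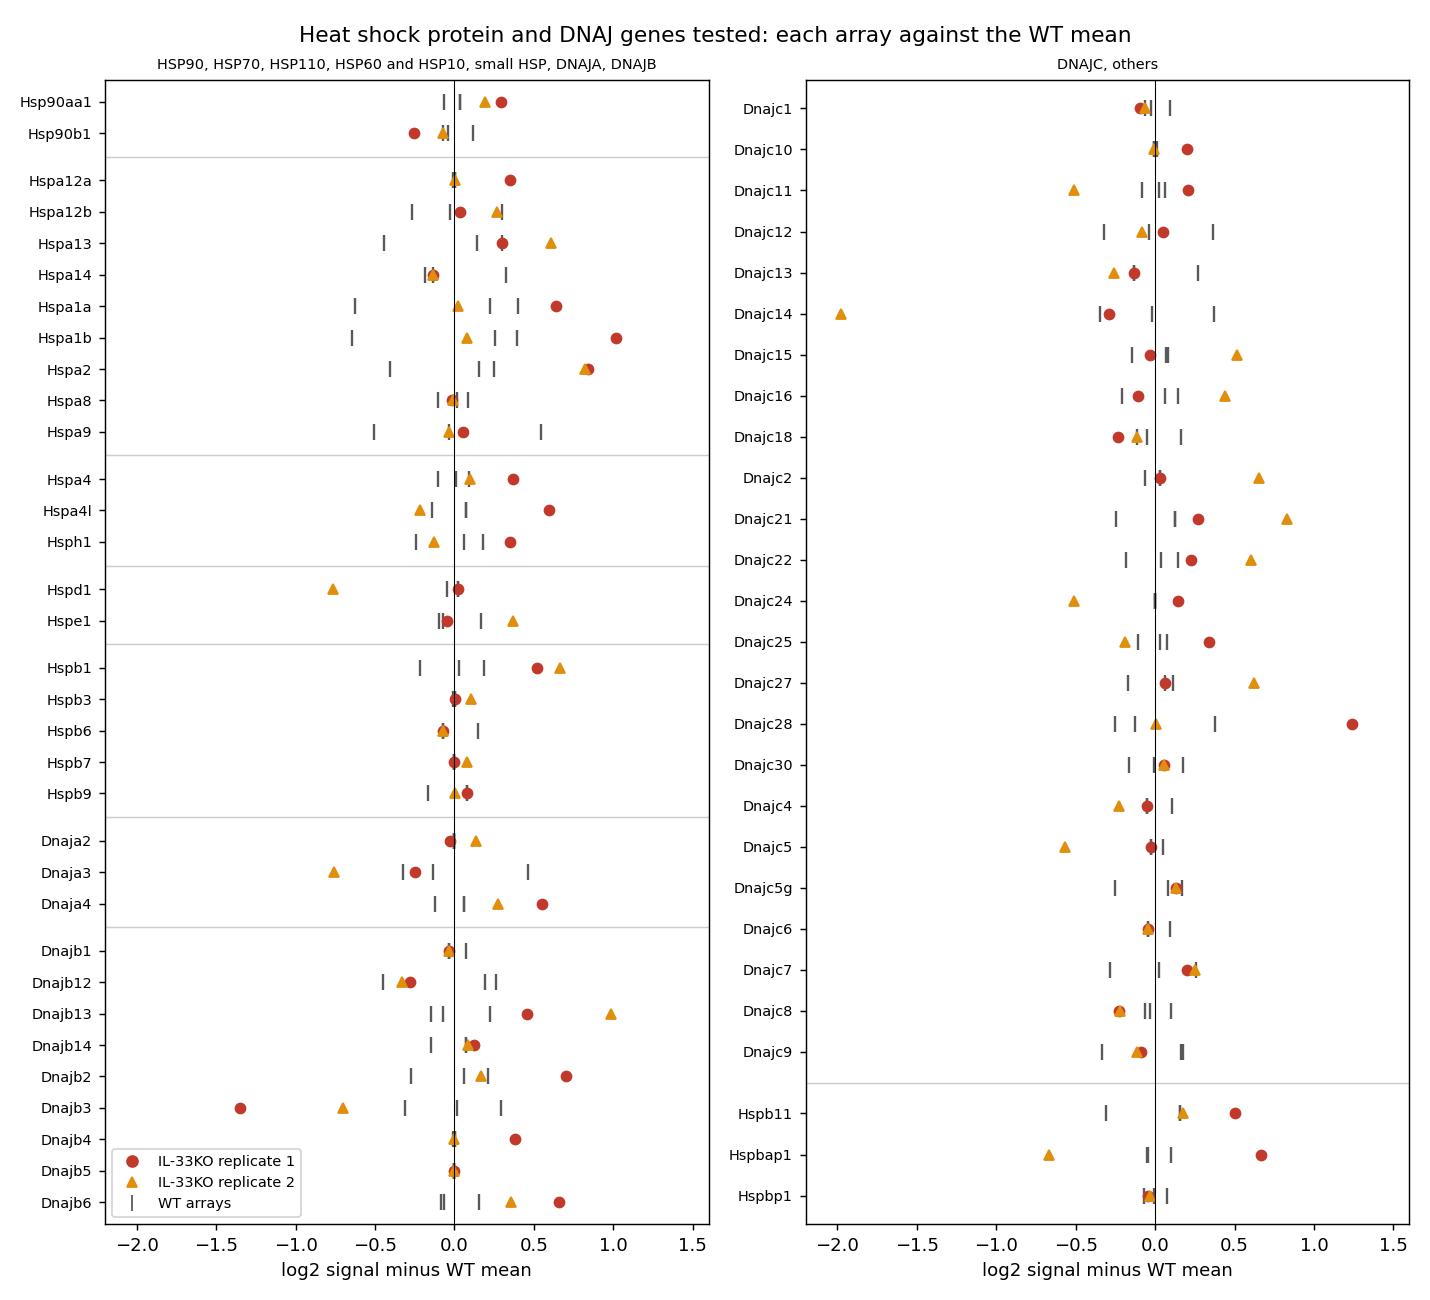
Each row is one of the 60 chaperone genes tested, grouped by family, and the axis is the log2 signal minus the WT mean of that gene. Circles and triangles are the 2 IL-33KO arrays and ticks the 3 WT arrays. Dnajc14 on replicate 2 lies farthest out, at -1.98, and Dnajb3 on replicate 1 next, at -1.35.

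The promoters were searched for the core of the heat shock element, on which heat shock factor 1 acts. In the 250 bases before the start of transcription (RefSeq, mouse assembly GRCm38.p6), GAANNTTC and TTCNNGAA, each its own reverse complement and therefore the same on both strands, were searched with overlaps allowed. A match was found for 13 of the 52 chaperone genes with a window, or 25%, against 14.5% of all 27025 genes in that table and 12.8% of all windows. The 13 include Hspa1a with Hspa1b and Hspd1 with Hspe1, whose windows are largely the same sequence, so the 13 are not all separate sequences. The 6 windows below are printed because the results turn on their genes, with the matches in capitals, 5′ to 3′ on the strand of the gene. Hspa1a and Hspa1b are shown as neighbouring copies whose windows are equal at 247 of 250 bases, Hspe1 as the start region that it shares with Hspd1, Hsph1 as an inducible HSP110, and Hspb1 and Dnajb6 as examples of genes with matches whose signals were higher in both IL-33KO arrays. Of the 11 genes with both IL-33KO arrays above all WT arrays, described below, 9 had a window. A match was found for 3 of these 9, Hspb1, Dnajb6 and Dnaja4, and for none of the other 6, Hspa2, Hspa4, Hspb11, Dnajb13, Dnajb14 and Dnajc21. The 2 genes with both arrays below, Dnajb3 and Dnajc8, had 0 matches.
Hspa1a, chr17:34972157-34972406, minus strand: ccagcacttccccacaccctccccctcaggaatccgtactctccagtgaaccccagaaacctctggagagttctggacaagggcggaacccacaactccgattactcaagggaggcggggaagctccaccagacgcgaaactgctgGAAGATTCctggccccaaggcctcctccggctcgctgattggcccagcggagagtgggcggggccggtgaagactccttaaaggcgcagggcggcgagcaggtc
Hspa1b, chr17:34959239-34959488, minus strand: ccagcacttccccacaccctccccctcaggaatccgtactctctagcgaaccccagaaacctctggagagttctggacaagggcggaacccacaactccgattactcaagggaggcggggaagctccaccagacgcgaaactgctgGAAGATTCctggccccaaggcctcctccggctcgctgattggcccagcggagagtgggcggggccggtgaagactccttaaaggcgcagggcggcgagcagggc
Hsph1, chr5:149636316-149636565, minus strand: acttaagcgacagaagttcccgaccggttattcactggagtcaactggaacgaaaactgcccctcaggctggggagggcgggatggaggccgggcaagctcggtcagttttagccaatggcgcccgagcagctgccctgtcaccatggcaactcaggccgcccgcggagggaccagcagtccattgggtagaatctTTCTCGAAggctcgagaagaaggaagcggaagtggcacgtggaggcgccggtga
Hspe1, chr1:55087898-55088147, plus strand: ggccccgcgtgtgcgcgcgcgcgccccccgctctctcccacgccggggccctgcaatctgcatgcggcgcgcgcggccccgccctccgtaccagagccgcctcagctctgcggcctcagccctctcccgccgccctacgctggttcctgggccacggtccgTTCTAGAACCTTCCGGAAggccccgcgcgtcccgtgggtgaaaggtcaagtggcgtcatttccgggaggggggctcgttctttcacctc
Hspb1, chr5:135887669-135887918, plus strand: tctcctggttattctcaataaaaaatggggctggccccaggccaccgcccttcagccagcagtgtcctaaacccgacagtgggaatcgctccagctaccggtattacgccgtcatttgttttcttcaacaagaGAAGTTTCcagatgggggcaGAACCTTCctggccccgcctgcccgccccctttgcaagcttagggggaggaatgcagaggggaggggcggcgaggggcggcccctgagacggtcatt
Dnajb6, chr5:29735648-29735897, plus strand: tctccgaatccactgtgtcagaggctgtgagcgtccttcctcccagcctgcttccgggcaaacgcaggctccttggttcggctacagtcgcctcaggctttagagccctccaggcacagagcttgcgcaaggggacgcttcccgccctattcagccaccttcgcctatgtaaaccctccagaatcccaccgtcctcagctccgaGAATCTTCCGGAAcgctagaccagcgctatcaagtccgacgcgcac
In the Hspe1 window 3 matches overlap in one run, and the Hspd1 window, on the opposite strand, shares 215 of its 250 bases with it. In the Dnajb6 window 2 matches overlap. A match describes the letters and is not a measured binding site.

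In the HSP90 family, the stress-inducible cytosolic gene Hsp90aa1 read 6.94 and 6.84 in IL-33KO, against 6.68, 6.68 and 6.58 in WT. Both IL-33KO arrays lay above all WT arrays, and the difference was 0.25 (95% interval 0.07 to 0.42), a 1.19-fold higher signal with an adjusted p of 0.530 in limma. Hsp90b1, the HSP90 of the endoplasmic reticulum, read 9.50 and 9.68 in IL-33KO, against 9.87, 9.68 and 9.71 in WT. Its groups overlapped, since replicate 2 equalled a WT array, and the difference was -0.17 (SE 0.10).

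Among the HSP70 genes, Hspa2, best known from developing sperm, differed most. Its signal was 7.17 and 7.15 in IL-33KO, against 5.92, 6.48 and 6.57 in WT. The IL-33KO arrays stood close together above all WT arrays, with means of 7.16 ± 0.01 (SD, n = 2) and 6.33 ± 0.35 (SD, n = 3). The difference was 0.83 (95% interval 0.17 to 1.49), or 1.78-fold, and limma's adjusted p was 0.550. The germ cell markers fixed for this report, of which 5 of 7 were measured, averaged 3.48 and 3.77 in IL-33KO against 3.45 to 3.56 in WT, below the array medians. Their part in the Hspa2 result was not tested.

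The inducible copies Hspa1a and Hspa1b followed each other over the arrays. Hspa1a read 8.12 and 7.5 in IL-33KO, against 7.88, 7.70 and 6.85 in WT. Hspa1b read 7.36 and 6.42 in IL-33KO, against 6.74, 6.60 and 5.70 in WT. In both genes replicate 1 of IL-33KO was the highest of the 5 arrays, replicate 3 of WT the lowest, and replicate 2 of IL-33KO lay inside the WT range. Replicate 1 stood 0.64 above the WT mean for Hspa1a and 1.02 for Hspa1b, replicate 2 only 0.02 and 0.08. The mean differences were 0.33 (SE 0.41) and 0.55 (SE 0.48), with adjusted p of 0.738 and 0.655 in limma. Near-identical copies can share probes, so the 2 genes may not be separate measurements. The 22 immediate early genes, which respond to tissue dissociation, averaged 9.26 in replicate 1 and 8.70 in replicate 2 of IL-33KO, against 8.79, 8.78 and 8.98 in WT. Replicate 1 of IL-33KO, the highest array for Hspa1a and Hspa1b, also had the highest average of the immediate early genes. Replicate 3 of WT, the lowest array for Hspa1a and Hspa1b, had the highest WT average of the immediate early genes. The part of the immediate early genes in the Hspa1a and Hspa1b values was not tested.

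Hspa8, the constitutive cytosolic HSP70, was flat at its brightest probe set and not at the others. The brightest read 10.36 on both IL-33KO arrays, against 10.39, 10.45 and 10.27 in WT, a difference of -0.01 (95% interval -0.21 to 0.19). A further pair of probe sets, which held the same 5 values as each other, read 8.32 and 8.78 in IL-33KO, against 6.78, 6.84 and 5.88 in WT. There both IL-33KO arrays were above all WT arrays, by 2.06 on average. The remaining probe set read 6.61 and 7.05 in IL-33KO, against 6.42, 6.42 and 5.76 in WT, and differed by 0.63. When all 4 probe sets were averaged, the difference of Hspa8 was 1.18 in place of -0.01. Hspa8 has many processed pseudogenes and no probe set target was available to check, so which transcripts these probe sets read is uncertain.

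The other HSP70 genes showed no group pattern of that size. The mitochondrial HSP70 gene Hspa9 read 7.70 and 7.61 in IL-33KO, against 7.61, 7.14 and 8.19 in WT, so the WT arrays spanned the IL-33KO values. Hspa13, an HSP70 of microsomes, read 4.44 and 4.74 in IL-33KO, against 3.69, 4.27 and 4.44 in WT, a difference of 0.45 (SE 0.28). Hspa12a, Hspa12b and Hspa14 differed by 0.18, 0.15 and -0.13. Hspa12a read 3.89 and 3.54 in IL-33KO, against 3.54, 3.52 and 3.54 in WT. Its mean of 3.61 lay just above the filter cut of 3.56, which only replicate 1 exceeded. Without replicate 2 it differed by 0.35, on the single remaining IL-33KO array. Over the 9 HSP70 genes tested, 7 differences were above and 2 below 0, with a median of 0.18. Of all genes, 58.5% were above 0 and their median was 0.04. The 7 include Hspa12a, whose own difference is the HSP70 median. They also include Hspa1a and Hspa1b, which may not be separate measurements.

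**Figure D2:**
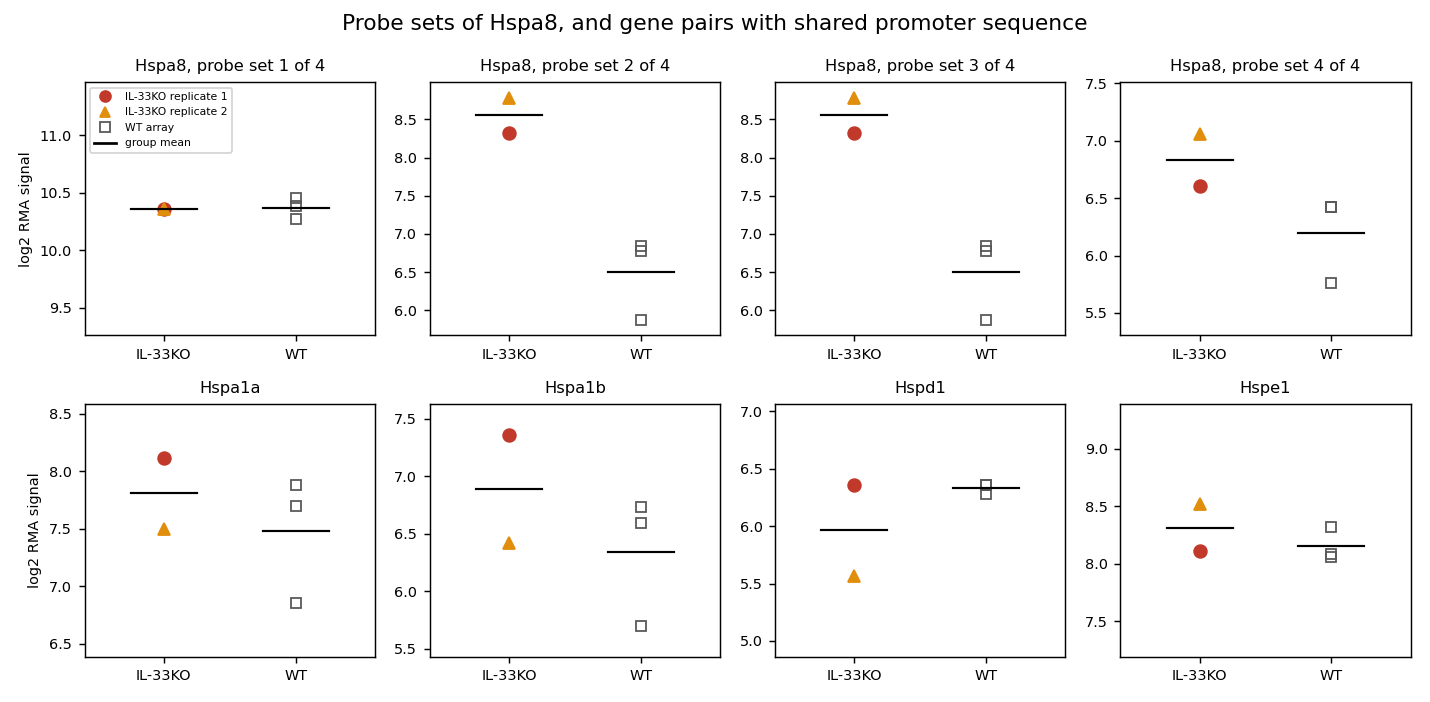
The upper row plots the log2 RMA signal of the 4 Hspa8 probe sets and the lower row that of Hspa1a, Hspa1b, Hspd1 and Hspe1, with IL-33KO arrays (circle, replicate 1, and triangle, replicate 2) left of WT arrays (squares) and bars for group means. The brightest Hspa8 probe set is flat near 10.36, while the next 2 are higher by 2.06 in IL-33KO. Replicate 2 of IL-33KO is low for Hspd1 and high for Hspe1.

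The HSP110 genes, exchange factors for HSP70, were all higher in replicate 1 than in WT. Hspa4 read 8.54 and 8.27 in IL-33KO, against 8.26, 8.19 and 8.07 in WT, with a difference of 0.23 (95% interval -0.09 to 0.56). Replicate 2 was above the highest WT array of Hspa4 only by a small margin. Hspa4l read 6.42 and 5.60 in IL-33KO, against 5.68, 5.89 and 5.89 in WT, so one IL-33KO array was above and the other below all WT arrays. Hsph1 read 6.77 and 6.30 in IL-33KO, against 6.18, 6.60 and 6.49 in WT, with replicate 1 above the WT range and replicate 2 inside it. Replicate 1 was 0.35 to 0.60 above the WT mean in these 3 genes and replicate 2 between -0.22 and 0.10.

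Hspd1 and Hspe1, the mitochondrial HSP60 and its HSP10 lid, are transcribed in opposite directions from the shared start region printed above. Hspd1 read 6.36 and 5.57 in IL-33KO, against 6.36, 6.28 and 6.36 in WT. Hspe1 read 8.11 and 8.52 in IL-33KO, against 8.32, 8.09 and 8.06 in WT. On replicate 2 of IL-33KO, Hspd1 was below and Hspe1 above all WT arrays, while replicate 1 lay inside the WT range for both. The differences were -0.37 (SE 0.26) and 0.16 (SE 0.17), neither past the test. Without replicate 1, limma gave Hspd1 a difference of -0.76. There replicate 2 is the only IL-33KO array and is assumed to vary like WT.

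Of the small heat shock proteins, Hspb1 (HSP27), an actin-binding holdase, was the only one tested whose groups did not overlap. It read 4.92 and 5.07 in IL-33KO, against 4.44, 4.59 and 4.19 in WT, both IL-33KO arrays being higher by 0.59 on average (95% interval 0.18 to 1.00). Its adjusted p of 0.518 in limma was the lowest of the 60 genes. A dimmer probe set of Hspb1 read 3.94 and 3.93 in IL-33KO, against 3.40, 3.89 and 3.94 in WT, with overlap. Hspb3, Hspb6, Hspb7 and Hspb9 differed by -0.07 to 0.05, and on Hspb6 both IL-33KO arrays equalled 2 WT arrays exactly. Hspb1 is also made by lung epithelium and endothelium. The 14 epithelial markers averaged 5.45 and 4.61 in IL-33KO against 4.26 to 4.36 in WT, and the 10 endothelial markers 5.10 and 5.43 against 4.81 to 4.99. Both IL-33KO arrays were above all WT arrays in both averages. The same held for the 6 mast cell and basophil markers, at 5.51 and 5.46 against 5.14 to 5.24. Among the endothelial markers Cldn5 and Cdh5 differed most, by 1.59 and 1.44. Of the 8 endothelial markers tested, 4 were higher and 1, Kdr, lower without overlap, against 11.6% and 6.32% of all genes. In replicate 1 the epithelial average rested largely on the secretory genes Scgb1a1, Bpifa1 and Scgb3a2, at 8.81, 8.52 and 6.21. Without these 3 genes, set apart after their values were seen, the other 11 averaged 4.80 and 4.84 in IL-33KO against 4.52 to 4.64 in WT. Of those tested, 10 of 12 epithelial (83.3%) and 7 of 8 endothelial markers (87.5%) were above 0, against 58.5% of all genes. None passed in limma, and 3 and 2 (25% each) had an unadjusted p below 0.05, against 7.64% of all genes. Bpifa1 passed the filter through replicate 1 alone, reading 3.22 on replicate 2 and 2.85 to 3.22 in WT. The part of these markers in the Hspb1 result was not tested.

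Type A DNAJ proteins are the general HSP70 partners. Dnaja4 read 6.16 and 5.88 in IL-33KO, against 5.66, 5.66 and 5.48 in WT. Both IL-33KO arrays were higher, by 0.42 on average (95% interval 0.08 to 0.75), with an adjusted p of 0.556 in limma. The cytosolic Dnaja2 read 7.35 and 7.51 in IL-33KO, against 7.38 on all 3 WT arrays, one array below and the other above. Dnaja3, a mitochondrial DNAJ protein, differed by -0.50 (SE 0.32) at its brightest probe set and by 0.17 and 0.21 at its other probe sets.

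Of 9 type B DNAJ genes tested, 3 were higher and 1 lower without overlap (33.3% and 11.1%, against 11.6% and 6.32% of all genes). Dnajb6, a suppressor of aggregation, read 7.68 and 7.37 in IL-33KO, against 6.95, 6.93 and 7.18 in WT. Both IL-33KO arrays were above all WT arrays, by 0.51 on average (95% interval 0.12 to 0.90), a 1.42-fold higher signal with an adjusted p of 0.541 in limma. Dnajb13, a radial spoke protein of cilia and sperm tails, read 6.49 and 7.02 in IL-33KO, against 6.26, 5.88 and 5.96 in WT, and differed by 0.72 (95% interval 0.10 to 1.34). The 10 ciliated cell markers averaged 4.02 and 4.07 in IL-33KO against 3.83 to 4.09 in WT, with overlap of the groups. Of the 7 ciliated cell markers tested, 5 were above and 2 below 0 in difference (71.4% above, against 58.5% of all genes). The part of these markers in the Dnajb13 result was not tested. Dnajb3, a testis DNAJ gene, was lower, at 3.86 and 4.51 in IL-33KO against 5.51, 5.23 and 4.90 in WT. Its difference was -1.03 (95% interval -1.85 to -0.20), with WT 2.04-fold higher and an adjusted p of 0.551 in limma.

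The inducible Dnajb1 (HSP40), which works with Hspa1a in the heat shock response, showed no difference. It held 6.50 on both IL-33KO arrays and on 2 WT arrays, and 6.62 on the other WT array, with a 95% interval of -0.20 to 0.12 for the difference. Dnajb5 had 5.78 on all 5 arrays. Dnajb14 read 5.41 and 5.37 in IL-33KO, against 5.14, 5.36 and 5.36 in WT, and cleared the nearest WT arrays by a small margin. Dnajb2 read 5.21 and 4.67 in IL-33KO, against 4.24, 4.57 and 4.72 in WT, and Dnajb4 4.84 and 4.46, against 4.45, 4.47 and 4.47. In both genes replicate 1 alone stood above the WT arrays. Without replicate 2, limma gave Dnajb4 a difference of 0.38, on a single IL-33KO array.

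Among the 24 type C DNAJ genes tested, 12 differences were above and 12 below 0 (50% above, against 58.5% of all genes tested). Dnajc21, a factor of ribosome assembly, read 7.36 and 7.93 in IL-33KO, against 6.85, 7.22 and 7.22 in WT, and was 0.55 higher without overlap (SE 0.23). Dnajc22 read 4.56 and 4.94 in IL-33KO, against 4.48, 4.38 and 4.15 in WT, also without overlap and 0.41 higher (SE 0.17). Dnajc8, a splicing-associated DNAJ protein, was lower in both IL-33KO arrays, at 7.45 and 7.46 against 7.77, 7.64 and 7.61 in WT. Its difference was -0.22 (95% interval -0.42 to -0.03), and limma's adjusted p was 0.568. Dnajc15, a mitochondrial DNAJ protein, read 7.63 and 8.18 in IL-33KO, against 7.74, 7.73 and 7.52 in WT, with replicate 2 alone outside the WT arrays.

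Single arrays set the widest type C values. Dnajc14 read 6.25 and 4.56 in IL-33KO, against 6.52, 6.19 and 6.91 in WT, so that only replicate 2 was below the WT arrays, by 1.98 from their mean. Dnajc28 read 5.57 and 4.33 in IL-33KO, against 4.20, 4.08 and 4.71 in WT, where only replicate 1 was above them, by 1.24 from the mean. Dnajc2, a ribosome-associated chaperone, read 6.23 and 6.85 in IL-33KO, against 6.14, 6.23 and 6.23 in WT. Dnajc5, the cysteine string protein of secretory vesicles, read 5.38 and 4.84, against 5.38, 5.38 and 5.46. In both of these genes replicate 2 alone stood apart. In the fit without replicate 1 they differed by 0.66 and -0.57, again on a single IL-33KO array.

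**Figure D3:**
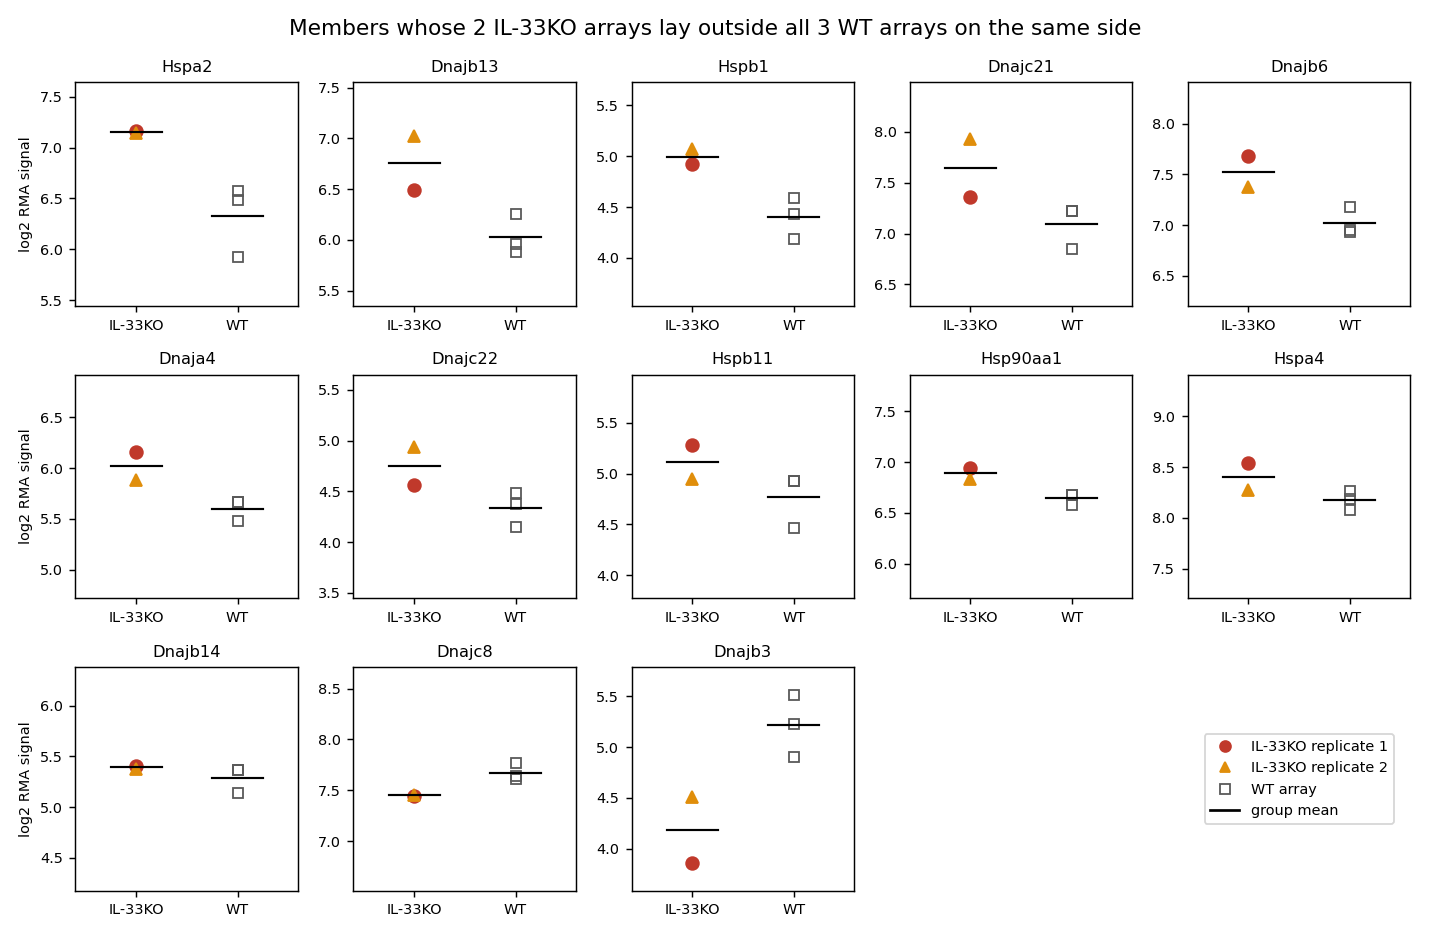
Log2 RMA signals of the 13 genes whose 2 IL-33KO arrays lay on the same side of all 3 WT arrays, ordered by difference, with IL-33KO left of WT. Bars are group means, and the first 11 genes are higher and Dnajc8 and Dnajb3 lower in IL-33KO.

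Without overlap of the groups, 11 of the 60 genes were higher and 2 lower in IL-33KO. These are 18.3% and 3.33%, where the shares over all genes tested were 11.6% and 6.32%. The 11 were Hsp90aa1, Hspa2, Hspa4, Hspb1, Dnaja4, Dnajb6, Dnajb13, Dnajb14, Dnajc21, Dnajc22 and Hspb11, the last an intraflagellar transport component named as a small heat shock protein. Hspb11 read 5.28 and 4.95 in IL-33KO, against 4.93, 4.47 and 4.93 in WT. Over the 60 genes, 36 differences (60%) were above 0, against 58.5% of all genes tested. Their median difference of 0.07 stood beside 0.04 for the array as a whole, so the balance of directions was near the background. Differences of at least 0.5 in size were found for 10 of the 60 genes, 7 higher and 3 lower, against 13.1% of all genes tested.

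Taken one at a time, replicate 1 of IL-33KO was above all WT arrays for 24 genes (40.0%) and below for 6 (10%), where the shares over all genes were 31.1% and 16.6%. Replicate 2 was above for 20 (33.3%) and below for 13 (21.7%), against 30.4% and 23.6%. The mean signal of the 60 genes was 6.10 in replicate 1 and 5.96 in replicate 2, against 5.93 to 5.97 in WT. The 2 arrays differed by more than 0.5 for 20 genes, with replicate 1 higher for 13 of them. The median size of the gap was 0.25 for the chaperone genes and 0.22 for all genes tested. Both arrays are set against the same WT mean, so their values are not independent.

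One IL-33KO array above and the other below all WT arrays was found for 6 of the 60 genes (10%), against 9.59% of all genes tested. Hspbap1, a partner of HSPB1, had the widest gap, at 5.16 and 3.83 in IL-33KO against 4.45, 4.44 and 4.59 in WT, so that the IL-33KO mean equalled the WT mean of 4.50 at the digits printed (SE of the difference 0.44). Besides Hspa4l and Dnaja2, described above, Dnajc11, Dnajc24 and Dnajc25 showed the pattern. Dnajc11, a mitochondrial DNAJ protein, read 5.99 and 5.27 in IL-33KO, against 5.70, 5.85 and 5.80 in WT. Dnajc24, of diphthamide synthesis, read 7.38 and 6.73, against 7.24 on all 3 WT arrays. Its WT values were equal to every deposited digit, so its WT standard deviation was 0. Without replicate 1 it differed by -0.51, on a single IL-33KO array. Except in Dnaja2, replicate 1 was the higher array in these genes. The remaining cofactor, Hspbp1, an HSP70 exchange factor, differed by -0.04 (SE 0.06).

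**Figure D4:**
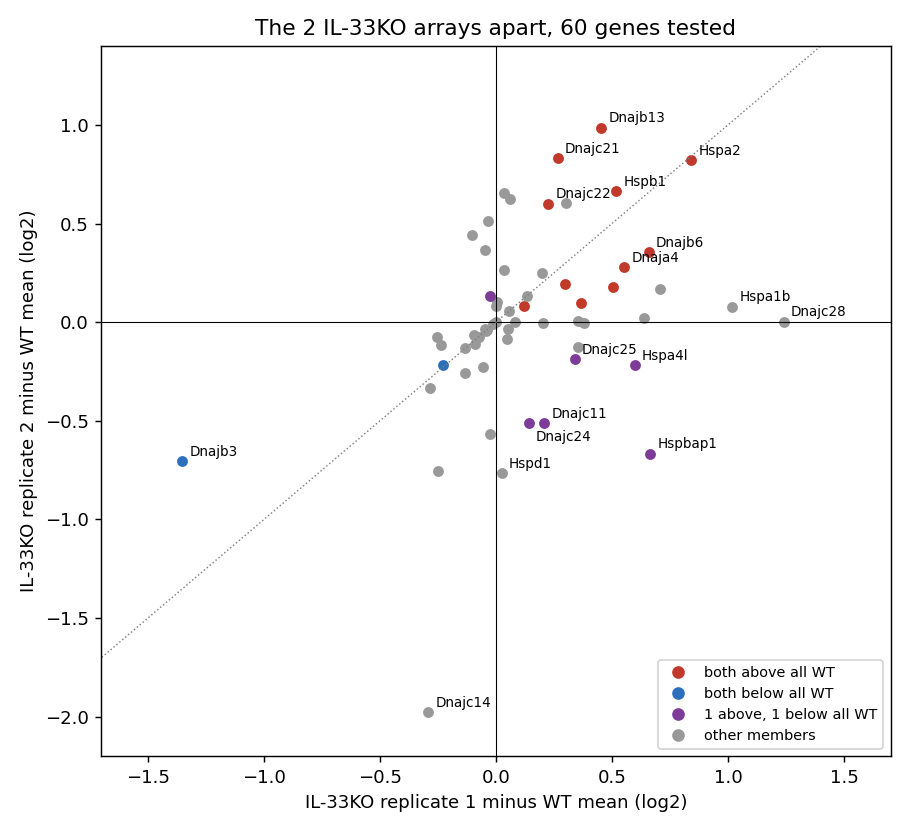
Each point is one of the 60 genes tested, with the log2 difference of IL-33KO replicate 1 from the WT mean on the horizontal axis and that of replicate 2 on the vertical axis. Red points are the 11 genes with both arrays above all WT arrays, blue the 2 with both below, purple the 6 with one array on each side, and grey the rest. Points on the dotted line would be equal in both arrays, and both axes use the same WT mean.

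Equal values limit what the spread of some genes can tell. Only 28 of the 60 genes (46.7%) had 5 distinct values over the 5 arrays, against 36.4% of all genes tested, and 16 had 3 or fewer. For 21 genes at least one IL-33KO value equalled a WT value to every deposited digit. The WT standard deviation had a median of 0.14 both for the chaperone genes and for all genes tested.

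The rest of the chaperone network, from lists written down for this report, also had 0 genes past the adjusted threshold in limma. Of 26 cochaperones of HSP70 and HSP90 tested, 12 were above and 14 below 0 in difference (46.2% above, against 58.5% of all genes tested), and 4 had an unadjusted p below 0.05 (15.4%, against 7.64%). Sugt1, an HSP90 cochaperone, read 6.91 and 6.97 in IL-33KO, against 6.67, 6.65 and 6.59 in WT, a difference of 0.30 (95% interval 0.16 to 0.44) with an adjusted p of 0.415. Chordc1, which also binds HSP90, read 4.59 and 4.31 in IL-33KO, against 4.89, 5.20 and 4.91 in WT. Grpel2, an exchange factor of the mitochondrial HSP70, read 5.31 and 5.41 in IL-33KO, against 5.65, 5.90 and 6.06 in WT. Both Chordc1 and Grpel2 were lower without overlap, with differences of -0.55 and -0.51. Of the 26 cochaperones, 4 were higher and 3 lower without overlap, against 11.6% and 6.32% of all genes tested.

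Of 13 subunits of the cytosolic chaperonin and of prefoldin, 9 were above and 4 below 0 (69.2% above), and 1 had an unadjusted p below 0.05 (7.69%). The prefoldin gene Pfdn2 read 6.90 and 7.43 in IL-33KO, against 6.64, 6.46 and 6.64 in WT, and Pfdn1 6.73 and 5.93, against 5.51, 5.74 and 5.88. Both prefoldin genes lay above all WT arrays on both IL-33KO arrays, by 0.59 and 0.62 on average, and Cct7 was 0.14 higher with overlap. Among 5 heat shock factor genes tested, Hsf2 read 4.69 and 3.40 in IL-33KO, against 5.08, 5.44 and 5.59 in WT, lower on both arrays, with a difference of -1.33 (SE 0.46, adjusted p 0.623 in limma). Hsbp1, a binding partner of the heat shock factor trimer, differed by 0.20 and Hsf2bp by 0.07, both with overlap. Hsf1 was not analysed here.

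The 4 endoplasmic reticulum chaperones left out by the name rule did not share a direction. Dnajb9, a DNAJ partner of Hspa5, read 9.84 and 9.73 in IL-33KO, against 8.58, 9.07 and 9.0 in WT, without overlap and 0.91 higher (95% interval 0.40 to 1.41), with an adjusted p of 0.453 in limma. In contrast, Hspa5 (BiP) read 8.70 and 8.45, against 8.67, 8.72 and 8.67. Dnajb11 and Dnajc3 differed by -0.11 and -0.08, with overlap of the groups.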

How the data were processed

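RNA of lung ILC2s was hybridised to 5 Affymetrix mouse arrays, 2 of IL-33KO and 3 of WT mice. The authors deposited log2 probe set values, made with Affymetrix Expression Console by RMA, per the submitters' processing notes; the versions are not given in the sources used here. Of 41345 probe sets, 23521 carried 1 platform symbol, 1814 several and 16010 none. Probe sets with several symbols were not used, 15 of which had a matching name among them. A gene took its probe set with the highest mean over the 5 arrays. Genes in the lowest 25% of means (below 3.56) were left out, and 16635 were fitted by genotype with lmFit and eBayes of limma 3.58.1 (R 4.3.3); p-values were adjusted over all of them after Benjamini and Hochberg, and the fit was tested on simulated data. p-values measure the spread between biological replicates as labelled, and only 5 arrays limit the precision. All 64 symbols were found in the RefSeq gene table.

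The members and lists were chosen with earlier results of these data known. Genes named are, per family, the 3 with the highest mean; up to 10 without overlap in each direction; up to 8 with the IL-33KO arrays on opposite sides of WT; the 6 with the smallest p; the 4 endoplasmic reticulum chaperones; and the 3 smallest p per network list. Chosen after their values were seen were Hspa1b, Hspa12a, Hspa12b, Hspa13, Hspa14, Hspb3, Hspb7, Dnajb2, Dnajb4, Dnajb5, Dnajb14, Dnajc2, Dnajc5, Dnajc14 and Dnajc28.

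Alternatives were other filters on dim genes, the mean of a gene's probe sets, quantile normalization, median centring, an intensity trend, array weights, a replicate block, leaving out each array and other thresholds. Replicate numbers were shared between the genotypes by label, but the labels name no pairing, so the numbers were not taken as pairs. The deviations of same-numbered arrays from their group means correlated at -0.0457 and 0.143 over genes. With 2 IL-33KO arrays the deviations of the IL-33KO arrays mirror each other. The correlations are therefore not separate checks and cannot decide on pairing.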

Additional observations from a re-analysis of the deposited data

How the results depend on the processing

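No chaperone gene and no gene on the array passed an adjusted p of 0.05 in limma with the settings of the report, with other filters on dim genes, averaged probe sets, quantile normalization, median centring, an intensity trend, array weights, a replicate block or an adjusted threshold of 0.1, nor among genes with at least 4 distinct values, an alternative chosen after seeing the data. An unadjusted p below 0.05 was reached by 1271 genes, 8 of them chaperone genes. Leaving out each array in turn gave 0 to 1072 genes and 0 to 4 chaperone genes, the calls coming only without an IL-33KO array: 1072 genes and 4 chaperone genes without replicate 1, and 389 and 2 without replicate 2, where the lone IL-33KO array is assumed to vary like WT. The replicate block, run although the numbers were not taken as pairs, gave 0 calls, 39 chaperone genes above 0 and a median of 0.09. Leaving out arrays gave a median difference of 0.001 to 0.09 and 30 to 39 genes above 0. Genes without overlap were then 12 to 24 higher and 2 to 13 lower, and fewer arrays make overlap less likely. Without IL-33KO replicate 1, 20 were higher (33.3%, against 30.4% of all genes tested) and 13 lower (21.7%, against 23.6%). Without IL-33KO replicate 2, 24 were higher (40.0%, against 31.1%) and 6 lower (10%, against 16.6%). Without WT replicate 2, 8 were lower, and without WT replicate 3, 5. With quantile normalization 5 were lower, and with median centring 5. No share over all genes is given for the WT arrays left out or for these normalizations. Of 44 named genes tested, 25 kept their sign in each of the 12 or 13 alternatives run for them, 18 changed sign in at least 1, and Hspb6 was 0 without WT replicate 1. Leaving out arrays gave ranges through 0 for Dnaja2 (-0.026 to 0.13), Dnajb11 (-0.18 to 0.0045), Dnajc3 (-0.41 to 0.25), Dnajc11 (-0.51 to 0.21), Dnajc15 (-0.033 to 0.51), Dnajc24 (-0.51 to 0.14), Dnajc25 (-0.19 to 0.34), Hsbp1 (-0.14 to 0.54), Hspa4l (-0.22 to 0.60), Hspa5 (-0.24 to 0.013), Hspa8 (-0.061 to 0.031), Hspa9 (-0.25 to 0.28), Hspb9 (-0.039 to 0.083), Hspbap1 (-0.67 to 0.67), Hspd1 (-0.76 to 0.025), Hspe1 (-0.049 to 0.37) and Hsph1 (-0.13 to 0.35). Signs also turned for Dnajb1 with quantile normalization (0.00038), Dnajb11 with the replicate block (0.0045), Hspa9 with median centring (-0.0025), and Hspbap1 with array weights (0.0050) and the replicate block (0.048), all near 0, and for Hspa8 with averaged probe sets (1.18). Why these signs turned was not tested. The median difference of all genes moved by under 0.1 in every setting. With 2 arrays against 3, tied values and one array whose Xist signal goes against its label, small differences cannot be resolved, and dim genes are limited by signal over background.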
